A study of Homo sapiens with 2 samples.

Results

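The genes examined were 46 histone methyltransferases, histone demethylases and core subunits of their complexes, taken from the 58174 genes of the RNA-seq of PLC-8024 cells by matching gene symbols in the deposited tables. PLC-8024 is a human hepatocellular carcinoma (HCC) cell line, and its label gives liver as the tissue. The PLC-8024-CTR library came from cells carrying a control vector and the PLC-8024-GDF1 library from cells transduced with lentivirus to overexpress GDF1, a ligand of the TGF-β superfamily, with stable cells selected in puromycin. Each condition had 1 library of poly-A RNA, and whether the selected cells were a pool or 1 clone is not given in the sources used here. Values are TPM, a measure of transcript abundance that allows for the length of the gene and the total of the library, so the levels of different genes can be compared and added up, but TPM keeps no read number, and the sequencing depth was not analysed here. With 1 library per condition, the differences below describe this pair of libraries, without replicates, standard deviations or p-values.

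Histone methyltransferases ("writers") place methyl groups on lysines or arginines of histones, and demethylases ("erasers") remove them. Methylation of lysine 4 (H3K4) and lysine 36 (H3K36) of histone H3 marks active promoters and transcribed gene bodies, whereas methylation of lysine 9 (H3K9) and lysine 27 (H3K27) marks heterochromatin and Polycomb-repressed genes. Lysine erasers of the Jumonji family use oxygen and alpha-ketoglutarate as cosubstrates, and many writers work only inside complexes such as COMPASS for H3K4 and PRC2 for H3K27. Genes of several of these enzymes, KMT2 genes among them, are recurrently mutated in liver cancer.

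Most of these genes had lower TPM in PLC-8024-GDF1 cells, mostly by a modest amount. A change is given below as the log2 of a ratio, TPM + 1 in PLC-8024-GDF1 cells divided by TPM + 1 in PLC-8024-CTR cells, a scale on which the change of genes with low TPM is understated. A minimum of 1 TPM in at least 1 of the libraries was passed by 44 of the 46 genes, and KMT2C and SETDB2 stayed under 1 TPM in both. Past 2-fold, 4 of the 44 fell, namely KDM6A, RBBP5, PRMT6 and KDM7A, which is 9.09% of them beside 9.61% of all 14929 genes that passed the same minimum. None of the 44 rose past 2-fold, beside 4.82% of all genes. Counted without regard to size, 39 of the 44 were lower in PLC-8024-GDF1 cells, beside 63.3% of all genes. The median change of the 44 was -0.37 and that of all genes was -0.20. Relative to the all-gene median, 28 of the 44 were lower.

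The counts depended on how the libraries were scaled. When the TPM of PLC-8024-GDF1 cells was multiplied by 1.15, which set the median ratio of genes with at least 5 TPM to 1, the all-gene median moved from -0.20 to -0.02. Then 29 of the 44 were lower, beside 51.6% of all genes, and 2 (KDM6A and RBBP5) were still past 2-fold lower, beside 6.85% of all genes. This scaling also moved the split of all genes past 2-fold from 1434 lower and 720 higher to 1022 lower and 1040 higher. By the plain TPM ratio, with no pseudocount, 9 of the 44 were past 2-fold lower, beside 16.3% of all genes, and 1 (ASH1L) was past 2-fold higher, beside 8.23%. The share of these genes past 2-fold lower was thus near the background on the first scale and 20.5% beside 16.3% by the plain ratio. The plot of levels by gene shows each gene in both libraries.

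**Figure D1:**
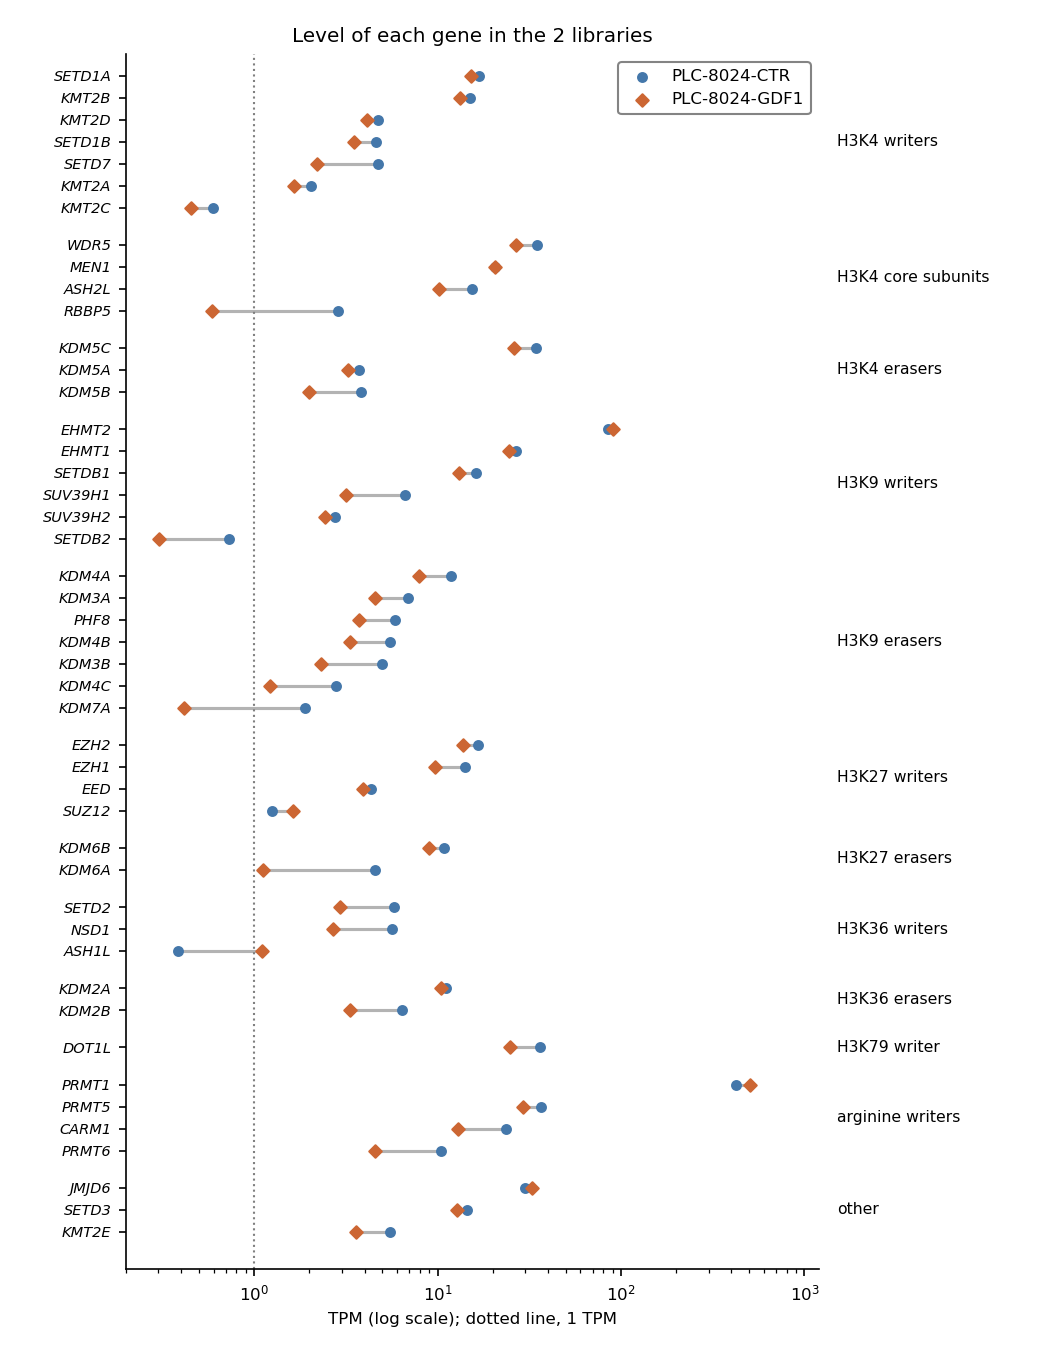
TPM of each of the 46 genes (log axis) in PLC-8024-CTR (blue circles) and PLC-8024-GDF1 (orange diamonds), 1 library each, ordered by target residue and role and, within a group, by mean level. The diamond lies to the left of the circle for 41 of the 46 genes, and levels span from 0.383 TPM (ASH1L) to 423.1 TPM (PRMT1) in PLC-8024-CTR cells.

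The 4 genes that fell past 2-fold are shown first, with the DNA before their start sites. GDF1 signals through SMAD proteins, and a SMAD motif, CAGAC, can be searched for there. KDM6A (UTX, the X-linked H3K27 eraser; ENSG00000147050, chrX:44732434-44972024 of GRCh37) fell from 4.58 TPM in PLC-8024-CTR to 1.12 TPM, a change of -1.40 on the log2 scale. RBBP5 (ENSG00000117222, chr1:205055270-205091143), the subunit that joins the catalytic protein of every COMPASS complex to its partners, fell from 2.86 to 0.589 TPM (-1.28). PRMT6 (ENSG00000198890, chr1:107599296-107610258), the arginine writer whose mark on H3 opposes H3K4 methylation, fell from 10.4 to 4.56 TPM (-1.03). KDM7A (ENSG00000006459, chr7:139784546-139876783), an eraser of H3K9 and H3K27 methylation, fell from 1.89 to 0.412 TPM (-1.03). Thus 3 of the 4 had under 5 TPM in both libraries, a range in which the depth, not analysed here, matters most, and PRMT6 was the only 1 above it. The next genes on the other side of the threshold were SUV39H1 (-0.87) and KDM3B (-0.85).

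The 250 bases upstream of the RefSeq start (GRCh38.p14, a later build than the hg19 of the TPM files) are printed 5′ to 3′ on the gene's strand, chrX:44872938-44873187 (plus strand) for KDM6A, chr7:140176984-140177233 (minus) for KDM7A, chr1:107056424-107056673 (plus) for PRMT6 and chr1:205121979-205122228 (minus) for RBBP5. Capitals mark CAGAC or its reverse complement GTCTG, the motif searched on both strands.
KDM6A: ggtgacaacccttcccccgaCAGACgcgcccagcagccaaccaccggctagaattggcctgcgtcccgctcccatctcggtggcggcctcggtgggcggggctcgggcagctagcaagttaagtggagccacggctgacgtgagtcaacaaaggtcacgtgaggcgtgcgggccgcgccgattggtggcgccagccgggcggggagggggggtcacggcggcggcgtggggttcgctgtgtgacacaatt
KDM7A: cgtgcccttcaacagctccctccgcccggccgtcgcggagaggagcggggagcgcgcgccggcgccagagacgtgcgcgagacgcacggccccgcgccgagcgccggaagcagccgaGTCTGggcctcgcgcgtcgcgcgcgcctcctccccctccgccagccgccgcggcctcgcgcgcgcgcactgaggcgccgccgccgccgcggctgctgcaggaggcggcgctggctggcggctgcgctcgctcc
PRMT6: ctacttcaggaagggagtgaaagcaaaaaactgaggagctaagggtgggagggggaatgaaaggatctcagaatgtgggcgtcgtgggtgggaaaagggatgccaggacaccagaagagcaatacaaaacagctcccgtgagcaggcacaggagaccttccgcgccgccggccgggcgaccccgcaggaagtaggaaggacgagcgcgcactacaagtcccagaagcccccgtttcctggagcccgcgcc
RBBP5: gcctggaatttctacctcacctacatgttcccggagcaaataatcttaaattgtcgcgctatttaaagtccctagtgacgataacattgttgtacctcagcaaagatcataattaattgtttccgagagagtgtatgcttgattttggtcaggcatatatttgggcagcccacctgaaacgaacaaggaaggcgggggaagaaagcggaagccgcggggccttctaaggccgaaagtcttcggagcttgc
KDM6A and KDM7A each held 1 such 5-base motif, and PRMT6 and RBBP5 held none. Shorter or other SMAD motifs were not searched for. The motif is short and occurred in 38.0% of all 35116 promoters in the table and in 43.5% of the 62 promoters of the 42 genes examined that the table holds. Counted by gene, 23 of these 42 genes (54.8%) had it in at least 1 promoter, beside 42.8% of all 27305 genes. The windows differed in composition, with a GC content of 81.6% and 50 CpG dinucleotides for KDM7A, 69.2% and 27 for KDM6A, 60.4% and 16 for PRMT6 and 46.8% and 12 for RBBP5. The median over the 62 promoters was 67.0% GC and 22 CpG, above the 58.0% and 11 over all promoters, so RBBP5 was the CpG-poorest of the 4 and the only 1 below the median GC content of all promoters. No binding was measured here. SETD1B, JMJD6, ASH2L and DOT1L were not matched.

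Of the genes examined, the erasers had a lower median change than the writers. All 14 erasers that passed 1 TPM were lower in PLC-8024-GDF1 cells (12 of 14 after the rescaling, with KDM5A and KDM2A on the other side), with changes from -1.40 to -0.08 and a median of -0.56. Of the 23 writers, 19 were lower (13 of 23 after the rescaling), with a median of -0.25. The writers count the PRC2 subunits EED and SUZ12, whereas the COMPASS core subunits were kept apart. Of all genes, 63.3% were lower, and 51.6% after the rescaling, which is near the 56.5% of writers. The 4 genes counted as COMPASS core subunits (WDR5, ASH2L, RBBP5 and MEN1, without DPY30) had a median of -0.45. All 4 were lower (3 of 4 after the rescaling). Erasers also had lower levels, with a median of the mean TPM of 4.61 beside 7.48 for writers, and longer transcripts, with medians of 6726 and 4633 bases. Over the 44 genes the change went with level. The 22 genes with a mean under 5 TPM had a median change of -0.63 (all genes in that range, -0.24), the 10 between 5 and 15 TPM had -0.40 (all genes, -0.30) and the 12 above had -0.19 (all genes, -0.11). The part of level in the difference between erasers and writers was not tested.

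**Figure D2:**
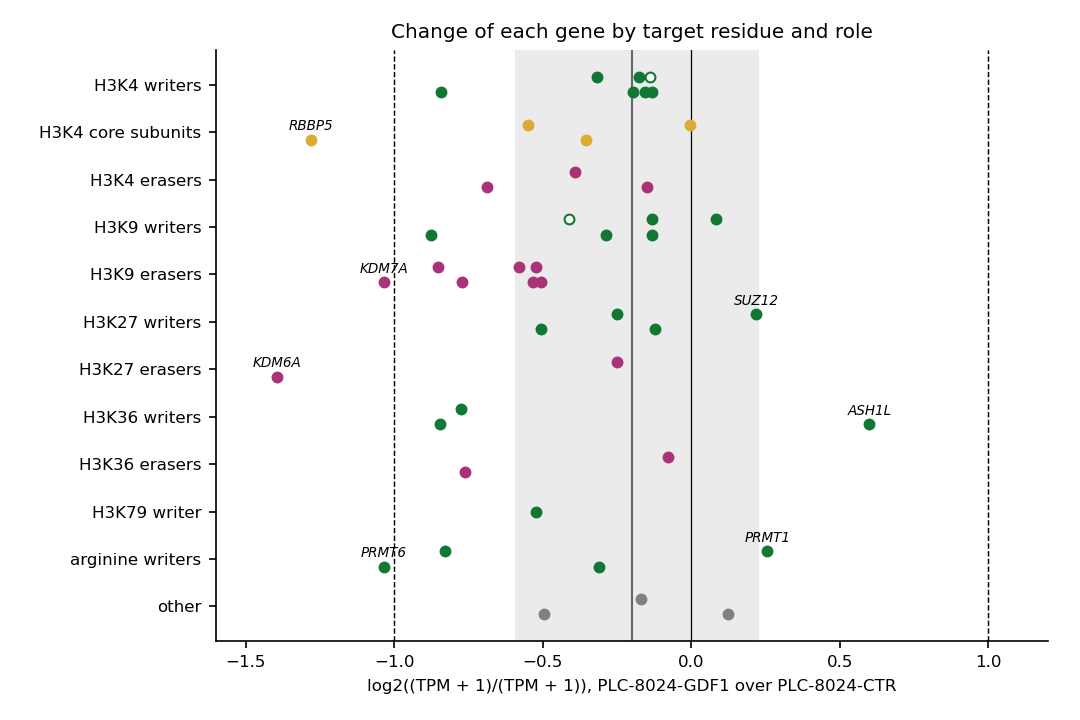
Change of each gene, as the log2 of TPM + 1 in PLC-8024-GDF1 divided by TPM + 1 in PLC-8024-CTR, 1 library each, in rows by target residue and role (green, writers; purple, erasers; yellow, core subunits; grey, other; open, under 1 TPM in both). Dashed lines mark 2-fold, the grey band spans the middle 50% of all 14929 genes and the line inside it their median of -0.20; all 7 H3K9 erasers lie left of that median.

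H3K4 is written by the KMT2 and SETD1 enzymes, each in a COMPASS complex, and singly by SETD7. The most abundant of these writers was SETD1A, at 16.7 TPM in the control and 15.2 TPM in PLC-8024-GDF1 cells, the order in which the next values are given too. KMT2B followed with 15.1 and 13.2 TPM, and its relative KMT2A (MLL1) had 2.03 and 1.65 TPM. Of the remaining complex members, SETD1B had 4.62 and 3.52 TPM (-0.32), KMT2D 4.71 and 4.13 TPM and KMT2C 0.596 and 0.451 TPM. In contrast, SETD7, a monomethyltransferase that also acts on proteins other than histones, had 4.73 and 2.20 TPM, a log2 change of -0.84 and the largest among H3K4 writers. The other 5 writers above 1 TPM lay between -0.32 and -0.13, close to the all-gene median, and 3 of the 6 were on the higher side after the rescaling.

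The COMPASS core differed more within itself. WDR5, the scaffold and the most abundant of the 4 core subunits examined, had 34.7 and 26.9 TPM (-0.36). ASH2L had 15.4 and 10.2 TPM (-0.55). DPY30, listed here with the accessory subunits, stood higher, at 113.2 and 96.5 TPM (-0.23). MEN1 (menin), which belongs only to the KMT2A and KMT2B complexes, had 20.5 TPM in both libraries (-0.01). Beside them stood RBBP5 with its fall of -1.28, the lowest-expressed core subunit in both libraries. The 4 core subunits, without DPY30, summed to 73.5 and 58.1 TPM, 79.1% of the control. Among the 3 KDM5 genes, the H3K4 erasers of the 46, KDM5C had 34.5 and 26.1 TPM and made up 82.1% of their sum in PLC-8024-CTR cells. KDM5B, an eraser often abundant in tumours, had 3.81 and 1.99 TPM (-0.69), while KDM5A had 3.71 and 3.25 TPM (-0.15), so a pair at nearly equal levels in the control differed in PLC-8024-GDF1 cells. Summed writers of H3K4 went from 48.5 to 40.4 TPM and summed erasers, without KDM1A, from 42.1 to 31.3 TPM.

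At H3K9 the summed TPM of writers and erasers differed more in change than at H3K4, H3K27 or H3K36. By the medians of single genes, the gap was wider at H3K27 (-0.19 for writers and -0.82 for the 2 erasers counted there) than at H3K9 (-0.13 and -0.58). The H3K27 writers count the PRC2 subunits EED (-0.12) and SUZ12 (0.22) with EZH1 (-0.51) and EZH2 (-0.25), so that comparison depends on the grouping. The writers were dominated by EHMT2 (G9a), which had 85.0 and 90.2 TPM (0.08). Its partner EHMT1 (GLP) had 26.9 and 24.5 TPM (-0.13) and SETDB1, the writer that silences retroelements, 16.2 and 13.1 TPM (-0.29). SETDB2 had 0.730 and 0.301 TPM. The enzymes of constitutive heterochromatin were unequal, as SUV39H1 had 6.62 and 3.16 TPM (-0.87) and SUV39H2 had 2.75 and 2.42 TPM (-0.13). Added up, H3K9 writers had 138.2 and 133.6 TPM, 96.7% of the control, a log2 change of -0.05 that became 0.16 after the rescaling.

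By contrast, each of the 7 H3K9 erasers was lower in PLC-8024-GDF1 cells, beside 63.3% of all genes. After the rescaling each was still lower, beside 51.6% of all genes. Before it, their changes lay between -1.03 and -0.51. KDM4A, the most abundant, had 11.8 and 7.91 TPM (-0.52). Its relatives KDM4B and KDM4C had 5.48 and 3.33 TPM (-0.58) and 2.79 and 1.22 TPM (-0.77). The dimethyl erasers of the KDM3 family had 6.89 and 4.56 TPM for KDM3A (-0.51) and 4.98 and 2.32 TPM for KDM3B (-0.85). PHF8, an X-linked eraser of the same subfamily as KDM7A, had 5.86 and 3.74 TPM (-0.53). The summed H3K9 erasers thus went from 39.7 to 23.5 TPM, 59.2% of the control. Only KDM7A among them passed 2-fold.

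At H3K27, EZH2, the main catalytic subunit of PRC2, had 16.6 and 13.8 TPM (-0.25), and its relative EZH1 had 14.2 and 9.68 TPM (-0.51). The other core subunits stood lower and apart, as EED had 4.34 and 3.91 TPM (-0.12) and SUZ12 had 1.26 and 1.62 TPM (0.22), of whose longest transcript 3.64% of 100-base windows also occur elsewhere, mainly in the pseudogene SUZ12P1. The erasers split as well. KDM6B (JMJD3), often induced by signals, had 10.8 and 8.94 TPM (-0.25), beside the fall of KDM6A. Summed H3K27 writers went from 36.3 to 29.0 TPM (79.8%) and erasers from 15.4 to 10.1 TPM (65.4%).

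At H3K36 the picture was the other way round, with the writers further apart between the libraries than the erasers. SETD2, the enzyme of trimethylation that travels with elongating polymerase, had 5.76 and 2.95 TPM (-0.77), and NSD1, which dimethylates H3K36, had 5.65 and 2.70 TPM (-0.85). ASH1L, a Trithorax-group protein, had 0.383 and 1.10 TPM, the largest difference upward of the 46 genes (0.60), at a level near the 1 TPM minimum. The 3 writers summed to 11.8 and 6.75 TPM, 57.2% of the control. Of the erasers, KDM2A had 11.1 and 10.5 TPM (-0.08) and KDM2B had 6.35 and 3.34 TPM (-0.76). DOT1L, the sole known writer of H3K79, had 35.9 and 24.7 TPM (-0.52).

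The arginine writers held the most abundant gene of the 46. PRMT1, responsible for most asymmetric arginine dimethylation in cells, had 423.1 and 505.7 TPM (0.26). CARM1 (PRMT4), a coactivator, had 23.6 and 12.9 TPM (-0.83), and PRMT5, the main symmetric writer, had 36.5 and 29.2 TPM (-0.31). With the fall of PRMT6, all 3 arginine writers other than PRMT1 were lower, and their sum went from 70.6 to 46.7 TPM (66.2%), whereas the sum with PRMT1 went from 493.6 to 552.3 TPM (111.9%). The same gene decided the total of the 46, which was 1002.4 and 972.6 TPM with PRMT1 and 579.3 and 467.0 TPM without it. Among the remaining genes, KMT2E, a SET-domain protein thought to lack histone methyltransferase activity, had 5.47 and 3.59 TPM (-0.50), SETD3, an actin histidine methyltransferase, had 14.5 and 12.8 TPM (-0.17) and JMJD6, a Jumonji-domain hydroxylase, had 29.8 and 32.6 TPM (0.12).

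The balance of writers and erasers was then compared as the ratio of their summed TPM, which a common scaling of a library cannot change. At H3K9 it was 3.48 in PLC-8024-CTR and 5.69 in PLC-8024-GDF1 cells, 1.63 times as high. Leaving out each of its 13 genes in turn gave between 1.38 times (without EHMT2) and 1.73 times, so the direction rested on no single gene. At H3K4 the ratio was 1.15 and 1.29, between 1.06 and 1.19 times as high with each gene left out. The eraser sum there holds only the 3 KDM5 genes. KDM1A, an H3K4 eraser outside the 46, had 49.9 and 45.3 TPM, more than that sum (42.1 and 31.3 TPM) in either library. The ratio at H3K4 thus describes the listed genes only. At H3K27 it was 2.36 and 2.88, but without KDM6A it was 0.965 times as high and without KDM6B 3.26 times. With KDM6A and KDM6B as the only erasers counted there, the direction rested on KDM6A. Each enzyme was counted only at its assigned residue, so KDM7A, which also acts on H3K27, is not in that sum. At H3K36 it was 0.675 and 0.488, and without KDM2A the direction turned, at 1.09 times, with KDM2A and KDM2B as the only erasers counted there. The sums hold only genes of the 46, so NSD2 and NSD3 are left out at H3K36. The KDM4 genes and KDM7A are counted at H3K9 alone, so the directions at H3K27 and H3K36 depend on the grouping too. They weight each gene by its TPM and say nothing of protein level or activity.

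**Figure D3:**
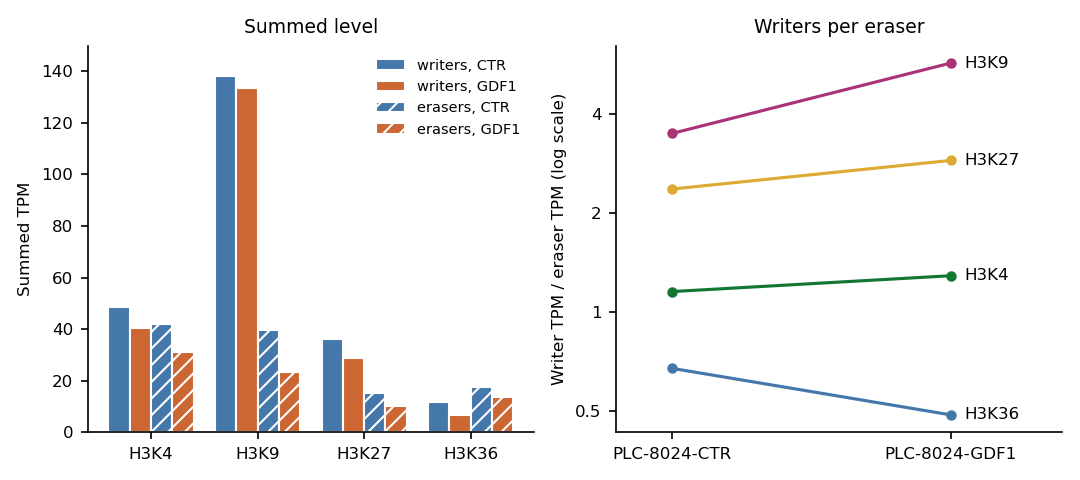
Left, summed TPM of writers (plain bars) and erasers (hatched bars) of 4 H3 lysines among the 46 genes. PLC-8024-CTR is blue and PLC-8024-GDF1 orange, 1 library each. Right, the ratio of the sums on a log axis, which was 3.48 and 5.69 at H3K9 and moved less at H3K4, H3K27 and H3K36.

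Related enzymes were also compared as shares of a pair's summed TPM within a library. Of 17 pairs, 8 moved by more than 5 percentage points and 9 by less. The share of KDM6A in the pair with KDM6B moved furthest, from 29.8% to 11.1%. PHF8 went from 75.6% to 90.1% of its pair with KDM7A, and SUV39H1 from 70.7% to 56.6% of its pair with SUV39H2. In the KDM families, the share moved towards KDM5A over KDM5B (49.3% to 62.1%), KDM2A over KDM2B (63.6% to 75.8%), KDM3A over KDM3B (58.0% to 66.3%) and both KDM4A (80.9% to 86.7%) and KDM4B (66.3% to 73.3%) over KDM4C. The order within the pair changed only for KDM5A and KDM5B, whose levels were nearly equal in the control. The writer pairs KMT2A with KMT2B, KMT2C with KMT2D, SETD1A with SETD1B, EHMT1 with EHMT2, SETDB1 with SETDB2 and EZH1 with EZH2 all moved by under 5 points, EZH1 from 46.1% to 41.2%.

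**Figure D4:**
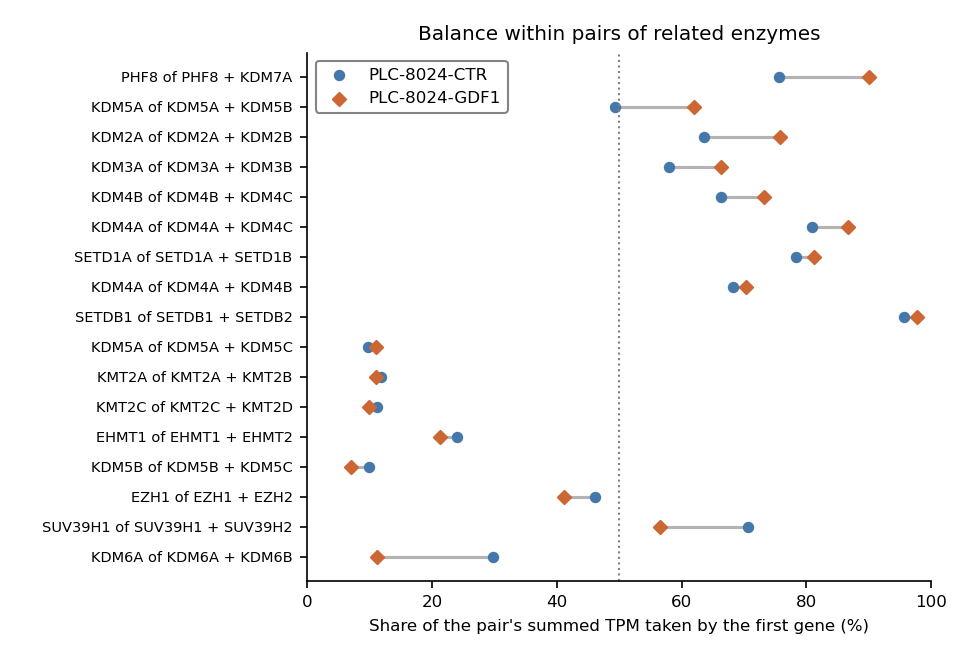
Share of the summed TPM of 17 pairs of related enzymes taken by the first-named gene, in percent, in PLC-8024-CTR (blue circles) and PLC-8024-GDF1 (orange diamonds), 1 library each. KDM6A moved from 29.8% to 11.1% and PHF8 from 75.6% to 90.1%, while 9 pairs moved by under 5 points.

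Transcript composition moved with the change across the whole library and is given beside the members for that reason. Over 11792 protein-coding genes, the median change went from -0.48 in the GC-poorest quintile, by the longest transcript, to 0.11 in the GC-richest, a Spearman rho across genes of 0.33 with GC content and -0.18 with length. The genes of each library share that library's preparation, so these are descriptions. Over the 44 genes the rho was 0.14 with GC content and -0.11 with length. Their GC content was ordinary, with a median of 50.4% beside 49.4%, but their transcripts were long, with a median of 6274 beside 3595 bases, and 23 of the 44 were in the longest quintile. KDM6A, at 36.4% GC, and KDM7A, at 38.3%, lay in the GC-poorest quintile. Set against coding genes of the same GC and length quintiles, 29 of the 44 were below the median of their class, 12 of 14 erasers and 13 of 23 writers, with median differences of -0.24 and -0.05. With the GC trend subtracted, none of the 44 was past 2-fold, beside 6.07% of 14640 genes past 2-fold lower and 6.29% higher on that scale. The subtraction also took out the overall shift, as the all-gene median went from -0.20 to -0.008. KDM6A then had -0.96, RBBP5 -0.95, PRMT6 -0.80 and KDM7A -0.60. All 7 H3K9 erasers were still lower, beside 30 of all 44 genes, with a median of -0.50.

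Overlap with other genes limited a few values, since the strand setting of the counting is not given in the sources used here. No gene of the 46 shared exons on its own strand with a gene of at least 1 TPM. On the opposite strand, 4 genes shared at least 5% of their exon bases with a gene of at least 1 TPM. CARM1 shared 20.2% with YIPF2, which had 74.4 and 122.3 TPM. SETDB1 shared 12.9% with CERS2, which had 97.6 and 10.6 TPM, WDR5 shared 11.2% with BX649632.1 (0.112 and 1.38 TPM) and KDM4A shared 9.12% with KDM4A-AS1 (2.16 and 1.69 TPM). None of these 4 was among the genes past 2-fold, and reads of the 2 strands there cannot be told apart. Smaller overlaps with expressed genes were not counted among the 4. Examples are DOT1L with PLEKHJ1 (4.6%), KDM2B with RNF34 (3.22%) and ASH1L with ASH1L-AS1 (1.63%). KMT2C shared 2.14% of its 100-base windows with other genes, among them BAGE2.

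The partners and relatives of these enzymes were examined as 10 lists of 92 genes, of which 85 passed 1 TPM. Of the 85, 72 were lower in PLC-8024-GDF1 cells (55 after the rescaling), beside 63.3% of all genes (51.6% after the rescaling), with a median change of -0.32. Past 2-fold, 8 of the 85 fell, which is 9.41% beside 9.61% of all genes, and 1 rose, beside 4.82%. The genes that fell were spread over the lists. SMYD2, a lysine writer with histone and non-histone targets, fell from 47.3 to 15.5 TPM (-1.55), and SETD5, a SET-domain protein, from 7.53 to 2.11 TPM (-1.46). MLLT10, a DOT1L cofactor, fell from 8.94 to 2.70 TPM (-1.43), UHRF1, which reads H3K9 methylation and maintains DNA methylation, from 8.20 to 2.66 TPM (-1.33), and RIOK1, a PRMT5 adaptor, from 13.3 to 4.95 TPM (-1.27). MAT2B, the regulatory subunit of the enzyme that makes the methyl donor, fell from 14.4 to 5.49 TPM (-1.25). SETMAR, a lysine methyltransferase fused to a transposase, fell from 4.36 to 1.68 TPM (-1.001), and PRDM15, a zinc-finger protein of the PRDM family, was the 1 that rose, from 1.77 to 5.81 TPM (1.30). None of the 10 COMPASS accessory subunits, the 8 PRC2 accessory subunits, the 4 other PRMT genes or the 7 other demethylases that passed 1 TPM was past 2-fold. KDM1A (LSD1), the H3K4 eraser that uses flavin instead of iron, had 49.9 and 45.3 TPM, a log2 change of -0.14 that became 0.07 after the rescaling.

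Facts of the libraries bear on all of these values. TPM summed to 999990.5 and 999994.6, and 14138 and 13658 genes had at least 1 TPM, so levels are relative to the rest of each library. The introduced gene was listed at 2.10 and 4.64 TPM as GDF1 (0.87) and at 13.3 and 9612 TPM as CERS1 (9.39), in whose exons the GDF1 coding sequence lies. All 7 hepatocyte markers passed 1 TPM, 6 of them were lower in PLC-8024-GDF1 cells and 3 fell past 2-fold, with a median change of -0.86 and a sum of 9364 and 6103 TPM, and KRT8 and KRT18 summed to 2429 and 3001 TPM. Of the markers of other cell types, PTPRC, VWF and COL1A2 were listed at 0.0001 TPM, the value the files use for 0, in both libraries, while 1 of 5 leukocyte markers (LYZ), 1 of 3 endothelial markers (PECAM1) and 1 of 4 fibroblast markers passed 1 TPM. The lists summed to 298.8 and 214.7 TPM, 23.5 and 22.4 TPM and 3.80 and 2.59 TPM, respectively. Of 12 proliferation genes, 9 were lower and 2 fell past 2-fold, beside 63.3% and 9.61% of all genes, with a median of -0.40 and a sum of 653.7 and 550.0 TPM, and their part in the values of the methyltransferases and demethylases was not tested.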

How the data were processed

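RNA-seq was made from 1 library of PLC-8024-CTR and 1 library of PLC-8024-GDF1 cells. Per the labels, the submitters' processing notes name FastQC 0.11.2, Trimmomatic 0.36, HISAT2 2.1.0, bedtools 2.26.0 and StringTie 1.3.3b with hg19, and the authors deposited 1 TPM value per gene. The methods name a RefSeq annotation while the files hold Ensembl identifiers. TPM keeps no depth, so no counting interval can be given.

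Both tables were joined on gene identifier, and all 46 symbols were listed once. Log2 ratios used a pseudocount of 1 and a minimum of 1 TPM in either library, and no test was run. The genes and gene lists were chosen with earlier results of these data known. Values are given for each gene past 2-fold, for each pair of related enzymes, and in each residue and role group for the most abundant gene and those with the largest rise and fall, and from the related lists for genes past 2-fold with at least 5 TPM and for KDM1A. A value that this rule would name among the related genes is not reported here. SETMAR, DPY30, NSD2, NSD3, the markers, genes overlapping a member and the remaining members were named after their values were seen. Alternatives were other pseudocounts, minimums and scaling, subtraction of a lowess GC trend (span 0.3) and adding overlapping genes. GENCODE v44 on GRCh37 held 55726 of 58174 identifiers and all 46 genes. Ratios were computed with pandas 2.3.3 and numpy 2.4.6 under Python 3.11.15, the trend with statsmodels 0.14.6, correlations with scipy 1.17.1 and plots with matplotlib 3.10.9, and the calculations were tested on simulated data.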

Additional observations from a re-analysis of the deposited data

How the results depend on the processing

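No paired analysis was possible because the 2 conditions have 1 library apiece. The 4 genes past 2-fold lower became 9 with a pseudocount of 0.1, beside 15.5% of all genes, and 9 by the plain TPM ratio, beside 16.3%. In either case 1 was higher instead of 0, beside 7.82% and 8.23% of all genes. The genes past 2-fold lower became 1 of the 29 with at least 5 TPM, beside 10.8% of all genes at that minimum. They became 2 after the rescaling, beside 6.85% of all genes, and 0 with the GC trend removed, beside 6.07%. The median change of -0.37 became -0.17 after the rescaling. Its distance of -0.18 from the all-gene median became -0.37 with no minimum, where that median is 0, and -0.28 with the GC trend removed. Leaving out the 4 genes with at least 5% opposite-strand overlap, an alternative chosen after seeing the data, kept the counts, now out of 40 genes. All genes then had 9.61% past 2-fold lower and 4.82% higher. The median was -0.35 and its distance -0.16. Genes with smaller overlaps stayed in. No expressed same-strand gene was there to be added. The count of related genes past 2-fold higher went from 1 to 2 with a pseudocount of 0.1, where 7.82% of all genes were past 2-fold higher.

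The summed change turned at H3K9 writers to 0.16 and in the group of other genes to 0.18 after the rescaling. Of single genes, 10 turned after the rescaling, to 0.0165 in KMT2B, 0.0150 in KMT2D, 0.0620 in SETD1A, 0.193 in MEN1, 0.0132 in KDM5A, 0.0189 in SUV39H2, 0.0688 in EHMT1, 0.0462 in EED, 0.114 in KDM2A and 0.0250 in SETD3. With the GC trend removed 9 turned, to 0.0532 in KMT2A, 0.0198 in MEN1, 0.208 in KDM5A, 0.257 in SUV39H2, 0.00103 in EHMT1, 0.144 in EZH2, 0.2997 in EED, 0.0663 in KDM2A and 0.124 in SETD3. Subtracting the GC trend also took out the overall shift, and the parts of the shift and of GC content in these turns were not separated. The cause was not tested. The depth, which TPM does not keep, limits most the 22 genes with a mean under 5 TPM.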
